A study of Mus musculus with 6 samples.

Results

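Transcript levels of 10 genes of fat-secreted factors and lipid uptake were examined in wounds of db/db mice, out of 33184 genes in the deposited table. They were listed by name, with earlier results of these data known: the adipokines Adipoq, Lep, Retn and Cfd, the leptin receptor Lepr, the angiopoietin-like genes Angptl4 and Angptl8, and the lipid uptake genes Lpl, Fabp4 and Cd36. All 10 were in the table and all 10 passed the filter on low values, set at 0.5 FPKM on average, which 16005 genes passed. FPKM is the number of fragments per kilobase of gene, scaled by sequencing depth, so levels can be set side by side between genes of different length.

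The 6 bulk RNA-seq libraries were made from skin wounds of db/db mice on the C57BL/Ks background, a diabetic line with a mutation in the leptin receptor gene. All 6 carried that mutation, and no non-diabetic wound is among them. A round wound of 0.6 cm was cut through epidermis and dermis, siRNA was injected around it at dpi1 (1 day post-injury), and the tissue was taken at dpi4. The 3 libraries labelled NC received a control siRNA and the 3 labelled SFRP2-siRNA received siRNA to Sfrp2, a secreted modulator of Wnt signalling. Age and sex of the mice were not given, and nothing says how the libraries map to animals, so each was taken as a separate sample and p-values measure the spread between these samples. The titles number the treated samples as the study numbers its 3 SFRP2 siRNA sequences, and whether each library received another sequence is not stated. The sample titles carry day 3, and from which day they count is not stated.

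Adipokines are proteins that fat cells release into the blood. Leptin (Lep) reports fat stores through the leptin receptor, adiponectin (Adipoq) acts through its own receptors on lipid oxidation and insulin sensitivity, resistin (Retn) is linked to insulin resistance in mice, and adipsin (Cfd) is complement factor D, the protease that starts the alternative complement pathway. Lipoprotein lipase (Lpl) frees fatty acids from circulating triglyceride, Cd36 carries them across the cell membrane, and Fabp4 binds them inside the cell. Angptl4 and Angptl8 are secreted inhibitors that tune the lipase, the first known to be raised by fasting and the second by feeding and insulin. In skin these genes are known mainly from the dermal fat layer, but Lpl, Fabp4 and Cd36 are also made by macrophages, endothelium or muscle.

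Libraries held 42925444 to 47117132 reads, totals inferred from the FPKM values and gene lengths. The 10 genes rested on 228 (Lepr, lowest library) to 258830 reads (Fabp4, highest library), so counting error was small beside the spread between libraries. The siRNA target went against its label: Sfrp2 had 11.6, 40.6 and 14.1 FPKM in NC 1, 2 and 3, and 50.6, 54.6 and 55.2 FPKM in SFRP2-siRNA 1, 2 and 3, higher in every library labelled SFRP2-siRNA. Differences are therefore given between labels, and none is read as an effect of less Sfrp2. The library labelled SFRP2-siRNA 1 stood apart: across genes its log2 levels correlated at 0.893 and 0.889 with SFRP2-siRNA 2 and 3, which correlated at 0.976 with each other. Mitochondrially encoded genes took 35.8% of the summed FPKM in NC 1, against 11.8% to 22.2% in the other 5 libraries. NC 1 also had the lowest weight of the 6, 0.36, when limma weighted libraries by their agreement with their group, followed by SFRP2-siRNA 1 at 0.495. Skin was present by its 10 keratinocyte markers, whose levels summed to 4034.3 to 6838.2 FPKM in NC and 3712.5 to 6982.3 FPKM in SFRP2-siRNA libraries, with none at 0. The tissue also held muscle: skeletal muscle markers summed to 3445.9 to 7006.3 FPKM in NC and 4730.1 to 13284.3 FPKM in SFRP2-siRNA libraries.

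Angptl8 was the member whose groups stood apart. It was about 3 times lower in SFRP2-siRNA than in NC libraries, while the groups overlapped for the other 9 genes. The sequence just before its RefSeq start (GRCm38.p6) is shown here, with those of the adipokines Adipoq and Lep and of the fatty acid transporter Cd36, whose groups overlapped and whose windows hold different motifs. The Cd36 start lies inside the gene's annotated span. Each run is the 250 bases before the start, on the gene's strand, 5′ to 3′. Capitals mark matches, on either strand, to any of 7 motifs that were searched: the CCAAT box (CCAAT), the E-box (CACGTG), the TATA box (TATAAA), the nuclear receptor site (AGGTCA), the GC box (GGGCGG), the C/EBP site (TTGCNNAAT) and the sterol regulatory element (TCACNCCAC).
Angptl8, chr9:21835260-21835509, plus strand: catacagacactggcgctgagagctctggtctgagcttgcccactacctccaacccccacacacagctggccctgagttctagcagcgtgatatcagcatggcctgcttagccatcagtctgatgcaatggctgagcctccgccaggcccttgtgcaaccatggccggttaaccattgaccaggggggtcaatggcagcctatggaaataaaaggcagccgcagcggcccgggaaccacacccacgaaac
Adipoq, chr16:23146286-23146535, plus strand: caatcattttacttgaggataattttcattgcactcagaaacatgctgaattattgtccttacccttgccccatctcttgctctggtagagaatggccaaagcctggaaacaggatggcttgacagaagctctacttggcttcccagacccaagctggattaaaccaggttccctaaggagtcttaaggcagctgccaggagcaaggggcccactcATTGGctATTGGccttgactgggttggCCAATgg
Lep, chr6:29059971-29060220, plus strand: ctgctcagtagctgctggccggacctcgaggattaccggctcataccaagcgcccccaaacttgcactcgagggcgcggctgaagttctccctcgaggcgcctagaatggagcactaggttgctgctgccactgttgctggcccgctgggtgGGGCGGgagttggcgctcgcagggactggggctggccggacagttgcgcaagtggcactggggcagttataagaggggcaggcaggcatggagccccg
Cd36, chr5:17835897-17836146, minus strand: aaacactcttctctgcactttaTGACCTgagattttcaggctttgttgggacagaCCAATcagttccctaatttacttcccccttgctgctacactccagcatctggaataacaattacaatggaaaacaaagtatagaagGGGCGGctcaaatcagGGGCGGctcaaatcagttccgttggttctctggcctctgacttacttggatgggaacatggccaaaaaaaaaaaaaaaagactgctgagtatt

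The Angptl8 window held none of the 7 motifs. The Adipoq window held 3 CCAAT boxes, which began 34, 27 and 7 bases before the start, and no other motif searched. Cd36 had a CCAAT box, an AGGTCA site and 2 GC boxes, and Lep had a single GC box. Windows were listed for 7 of the 10 genes, and Retn and Cfd also had no match, while the 2 windows of Lepr held a CCAAT box and a GC box. Over 32851 mouse promoter windows of the same length, 33.8% held CCAAT, 32.7% GGGCGG, 14.0% AGGTCA, 12.4% TATAAA, 6.02% CACGTG, 2.11% TTGCNNAAT and 1.05% TCACNCCAC. A match describes letters, and the libraries measured no binding to them.

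**Figure D1:**
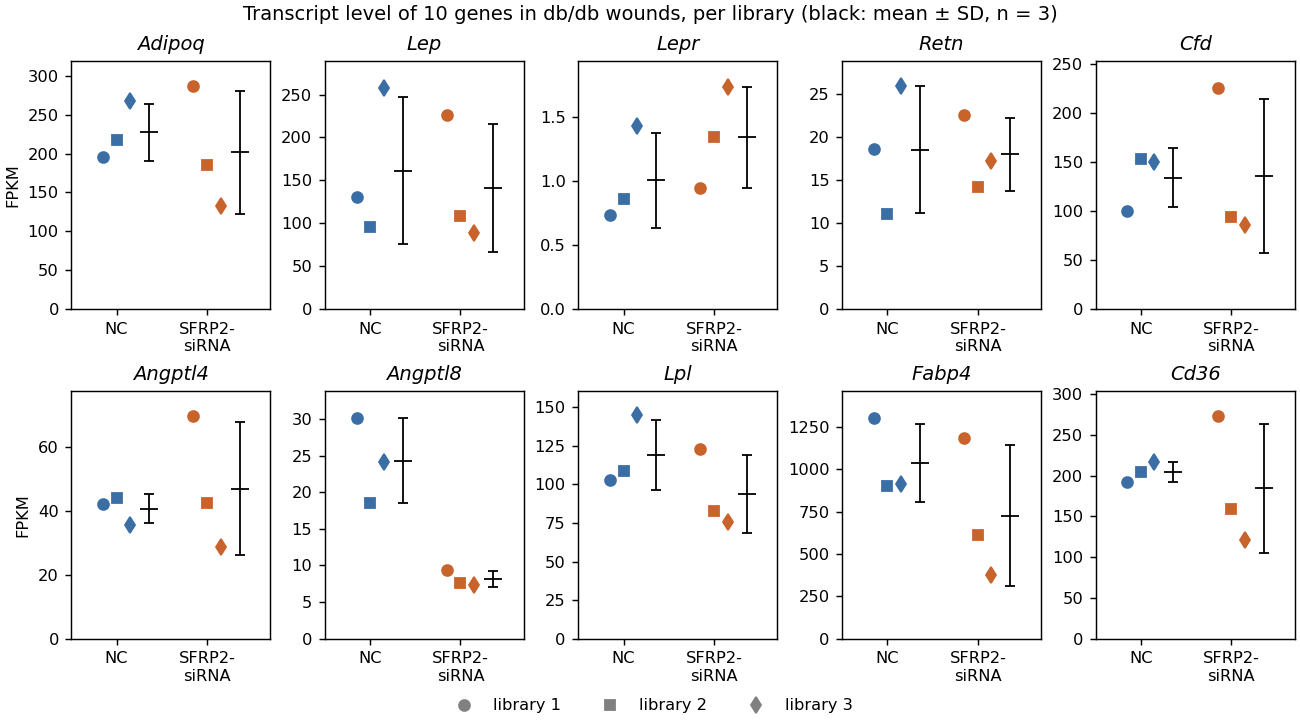
Level of each of the 10 genes in FPKM (y axis, linear, from 0) in the 3 NC (blue) and 3 SFRP2-siRNA (orange) libraries, marked by library number. Black bars give the mean and SD of each group. Angptl8 is the panel in which the groups do not overlap, with 18.6 to 30.2 FPKM in NC and 7.34 to 9.40 FPKM in SFRP2-siRNA.

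Among the adipokines, adiponectin (Adipoq, ENSMUSG00000022878, chr16:23146536-23158028, plus strand) had the highest level. Gene positions here are those of GENCODE vM21 on GRCm38. It had 196, 218 and 268 FPKM in NC 1, 2 and 3, and 287, 185 and 132 FPKM in SFRP2-siRNA 1, 2 and 3. SFRP2-siRNA 1 was the highest of all 6 libraries and SFRP2-siRNA 3 the lowest, so the groups overlapped. Group means stood at 228 ± 36.8 and 202 ± 79.1 FPKM (SD, n = 3 each). The difference, SFRP2-siRNA minus NC on the log2(FPKM + 1) scale as throughout, was -0.24 (SE 0.31, 95% interval -0.98 to 0.50, limma adjusted p = 0.726).

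Leptin (Lep, ENSMUSG00000059201, chr6:29060220-29073877, plus strand) was also abundant, above 98.1% of the genes tested. Its levels were 131, 95.1 and 258 FPKM in NC and 226, 108 and 88.5 FPKM in SFRP2-siRNA libraries 1, 2 and 3. In both groups 1 library stood well above the other 2, NC 3 and SFRP2-siRNA 1. The means of 161 ± 85.4 and 141 ± 74.6 FPKM (SD, n = 3 each) differed by -0.19 on the log2 scale (SE 0.47, 95% interval -1.32 to 0.94), the widest interval of the 10 genes. Within a library the ratio of Lep to Adipoq was 0.435 to 0.961 in NC and 0.581 to 0.787 in SFRP2-siRNA. This ratio, chosen after the levels were seen, differed by 0.04 on the log2 scale (SE 0.35, exact permutation p = 0.9).

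Resistin (Retn, ENSMUSG00000012705, chr8:3655770-3660110, plus strand) was far less abundant than the other adipokines, above 82.1% of the genes tested. It had 18.6, 11.1 and 25.9 FPKM in NC, and 22.5, 14.2 and 17.2 FPKM in SFRP2-siRNA libraries 1, 2 and 3. All 3 SFRP2-siRNA values lay inside the NC range. Group means stood at 18.6 ± 7.40 and 18.0 ± 4.16 FPKM (SD, n = 3 each), a log2 difference of 0.01 (SE 0.31, 95% interval -0.74 to 0.75) whose sign turned under 3 other scalings or weightings of the libraries.

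Adipsin (Cfd, ENSMUSG00000061780, chr10:79890853-79892655, plus strand) had 99.8, 153 and 150 FPKM in NC libraries 1, 2 and 3. In SFRP2-siRNA 1 it reached 226 FPKM, the highest of the 6 libraries, against 94.4 and 86.3 FPKM in SFRP2-siRNA 2 and 3, which were the lowest. The NC values thus lay between those of the SFRP2-siRNA libraries. The means of 135 ± 30.1 and 136 ± 78.7 FPKM (SD, n = 3 each) were close, with a log2 difference of -0.11 (SE 0.40, 95% interval -1.05 to 0.84).

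The leptin receptor (Lepr, ENSMUSG00000057722, chr4:101717404-101815352, plus strand) was the least abundant of the 10 genes, above 15.4% of the genes tested. It had 0.733, 0.863 and 1.43 FPKM in NC and 0.949, 1.35 and 1.74 FPKM in SFRP2-siRNA libraries 1, 2 and 3. NC 3 lay above SFRP2-siRNA 1 and 2, and without it the groups did not overlap. The means of 1.01 ± 0.373 and 1.35 ± 0.396 FPKM (SD, n = 3 each) differed by 0.23 (SE 0.19, 95% interval -0.22 to 0.67, limma adjusted p = 0.609) on the log2 scale, which with 1 added understates the change of so low a gene. The db mutation disturbs splicing of the long, signalling form of the receptor, and a gene-level value does not separate the forms.

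Beyond the adipokines, Angptl8 (ENSMUSG00000047822, chr9:21835510-21837347, plus strand) codes for a small secreted partner of other angiopoietin-like proteins. It had 30.2, 18.6 and 24.2 FPKM in NC 1, 2 and 3, and 9.40, 7.66 and 7.34 FPKM in SFRP2-siRNA 1, 2 and 3. All SFRP2-siRNA libraries, the one that stood apart included, were below all NC libraries. The NC mean of 24.3 ± 5.80 FPKM was 2.99 times the SFRP2-siRNA mean of 8.13 ± 1.11 FPKM (SD, n = 3 each). The log2 difference was -1.45 (SE 0.20, 95% interval -1.93 to -0.98). Its unadjusted limma p was 0.000197, but adjusted over the 16005 genes tested it was 0.518, and an exact permutation test gave p = 0.1, its lower bound with 3 libraries in each group. Over all alternative settings and libraries left out the difference was -1.62 to -1.29 and the adjusted limma p 0.119 to 0.842. The gene lies within Dock6, which is transcribed from the opposite strand and had 5.384 to 7.197 FPKM, and their exons share 0 bases.

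Angptl4 (ENSMUSG00000002289, chr17:33773750-33781830, minus strand), the related inhibitor that unfolds lipoprotein lipase, was not lower by mean. Its levels were 42.2, 44.2 and 35.6 FPKM in NC, and 69.7, 42.6 and 28.6 FPKM in SFRP2-siRNA libraries 1, 2 and 3. The 3 NC libraries lay close together, inside the range of the SFRP2-siRNA libraries. Group means stood at 40.6 ± 4.50 and 46.9 ± 20.9 FPKM (SD, n = 3 each), with a log2 difference of 0.12 (SE 0.31, 95% interval -0.63 to 0.86). Under median-of-ratios scaling, which divides each library by the median ratio of its genes to their mean, it was -0.04.

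The balance of both inhibitors was therefore taken within each library. For every unit of Angptl4 there were 0.715, 0.420 and 0.679 units of Angptl8, in FPKM, in NC 1, 2 and 3. The ratio was 0.135, 0.180 and 0.257 in SFRP2-siRNA 1, 2 and 3, below NC in every library. On the log2 scale it differed by -1.68 (SE 0.36, exact permutation p = 0.1), and by -1.92 to -1.45 with any 1 library left out. A ratio within a library does not depend on how the libraries were scaled, but it was chosen after the values had been seen. Of 4 other angiopoietin-like genes tested, 0 differed at an unadjusted limma p under 0.05, with a median log2 difference of 0.13. Angptl2, the most abundant, had 20.5 ± 3.39 and 21.1 ± 2.59 FPKM (SD, n = 3 each).

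Lpl (ENSMUSG00000015568, chr8:68880491-68907448, plus strand), the lipase both inhibitors act on, had 103, 109 and 145 FPKM in NC 1, 2 and 3. The SFRP2-siRNA libraries 1, 2 and 3 had 123, 83.0 and 75.7 FPKM. SFRP2-siRNA 1 lay within the NC range, and the other 2 SFRP2-siRNA libraries lay below it. The means of 119 ± 22.4 and 93.8 ± 25.2 FPKM (SD, n = 3 each) differed by -0.35 on the log2 scale (SE 0.24, 95% interval -0.93 to 0.22, limma adjusted p = 0.572). Per unit of Lpl, Angptl8 was at 0.167 to 0.292 in NC and 0.0767 to 0.0969 in SFRP2-siRNA libraries. This ratio was also chosen after the values were seen, and its log2 difference was -1.20 (SE 0.28, exact permutation p = 0.1).

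Fabp4 (ENSMUSG00000062515, chr3:10204088-10208576, minus strand), the fat cell's fatty acid binding protein, had the highest level of the 10 and ranked 35 among all genes tested. It had 1307, 902 and 912 FPKM in NC, and 1186.7, 614 and 379 FPKM in SFRP2-siRNA libraries 1, 2 and 3. SFRP2-siRNA 2 and 3 were below all NC libraries and SFRP2-siRNA 1 was not. Group means stood at 1040.3 ± 231 and 727 ± 415 FPKM (SD, n = 3 each), and the log2 difference was -0.65 (SE 0.44, 95% interval -1.71 to 0.40, limma adjusted p = 0.57). With any 1 library left out it ran from -1.08 (without SFRP2-siRNA 1) to -0.26 (without SFRP2-siRNA 3). The annotated exons cover the whole 4489 bases of the gene, so its FPKM is per full span and is lower than a value per spliced transcript would be.

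Cd36 (ENSMUSG00000002944, chr5:17781690-17888801, minus strand), the membrane carrier, had 192, 204 and 217 FPKM in NC, the tightest group of the 10 genes. In SFRP2-siRNA 1, 2 and 3 it had 273, 159 and 121 FPKM. The NC libraries lay between SFRP2-siRNA 1 above and SFRP2-siRNA 2 and 3 below. The means of 204 ± 12.2 and 185 ± 79.1 FPKM (SD, n = 3 each) differed by -0.23 on the log2 scale (SE 0.31, 95% interval -0.96 to 0.50, limma adjusted p = 0.734).

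**Figure D2:**
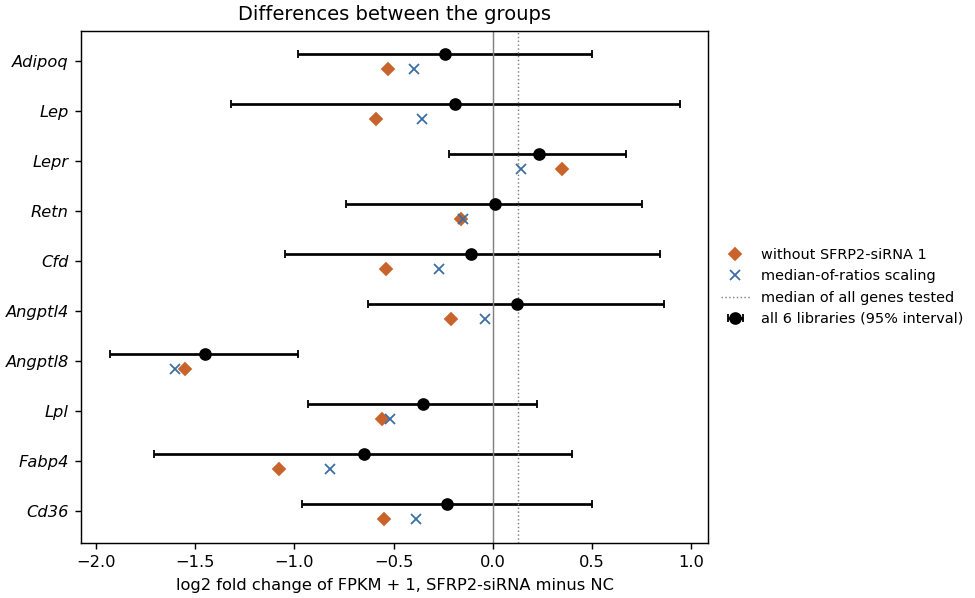
Log2 difference of FPKM + 1, SFRP2-siRNA minus NC (x axis), for each of the 10 genes. Black points with bars give the estimate and 95% interval over all 6 libraries, orange diamonds the estimate without SFRP2-siRNA 1, blue crosses that under median-of-ratios scaling, and the dotted line the median of all genes tested, 0.125. The Angptl8 interval, -1.93 to -0.98, does not reach 0, while those of the other 9 genes do.

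By group mean on the log2 scale, 7 of the 10 genes were lower in the libraries labelled SFRP2-siRNA and 3 (Lepr, Retn and Angptl4) were higher. The median of the 10 differences was -0.21, beside 0.125 over all 16005 genes tested. Median-of-ratios scaling moved the median of all genes to 0.000 and that of the 10 to -0.37. Scaling to equal sums without mitochondrially encoded genes moved them to 0.041 and -0.32. None of the 10 passed an adjusted limma p under 0.05 with an absolute log2 difference above 1, as did 0.0% of all genes. At an unadjusted limma p under 0.05, 1 of the 10 was lower and 0 were higher, beside 2.86% lower (458 genes) and 6.72% higher (1075 genes) of all genes tested. Limma voom on the reads recovered from the FPKM values also called 0 genes, with 1491 of 15558 at an unadjusted p under 0.05. Groups that did not overlap were seen for 1 of the 10, lower, beside 3.92% of all genes lower and 13.9% higher. Intervals this wide do not show that the other 9 genes were alike in both groups: for Lep the interval reaches from -1.32 to 0.94.

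Without SFRP2-siRNA 1 the same genes read differently. SFRP2-siRNA 2 and 3 were then below all NC libraries for 6 of the 10 genes (Adipoq, Cfd, Angptl8, Lpl, Fabp4 and Cd36), beside 7.97% of all genes tested. At an unadjusted limma p under 0.05, 4 were lower (Angptl8, Lpl, Fabp4 and Cd36), beside 3.64% of all genes. The log2 differences were then -1.08 (SE 0.35) for Fabp4, -0.56 (SE 0.22) for Lpl and -0.55 (SE 0.23) for Cd36. Adjusted over all genes, none of the 4 passed, the lowest limma p being 0.18 for Angptl8 with a difference of -1.55. For Adipoq, Lep and Cfd the differences became -0.53, -0.59 and -0.54. Without NC 1, the highest library for Angptl8 and Fabp4, their differences were -1.29 (SE 0.17) and -0.48 (SE 0.51).

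Most of the 10 genes spread widely among the SFRP2-siRNA libraries. The coefficient of variation was larger in SFRP2-siRNA than in NC libraries for 7 of the 10 genes, beside 16 of 19 fat cell markers and 41.5% of all genes tested, from 5.99% against 42.8% for Cd36 to 52.9% against 53.0% for Lep. SFRP2-siRNA 3 held the lowest value of the 6 libraries for 8 genes, the exceptions being Lepr and Retn, beside 17 of 19 fat cell markers and 8.51% of all genes. SFRP2-siRNA 1 held the highest for Adipoq, Cfd, Angptl4 and Cd36, 4 of the 10, beside 7 of 19 fat cell markers and 27.9% of all genes. In the same library macrophage markers summed to 2580.2 FPKM and in SFRP2-siRNA 3 skeletal muscle markers summed to 13284.3 FPKM, in each case the highest of the 6. Their part in the members' levels was not tested.

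**Figure D3:**
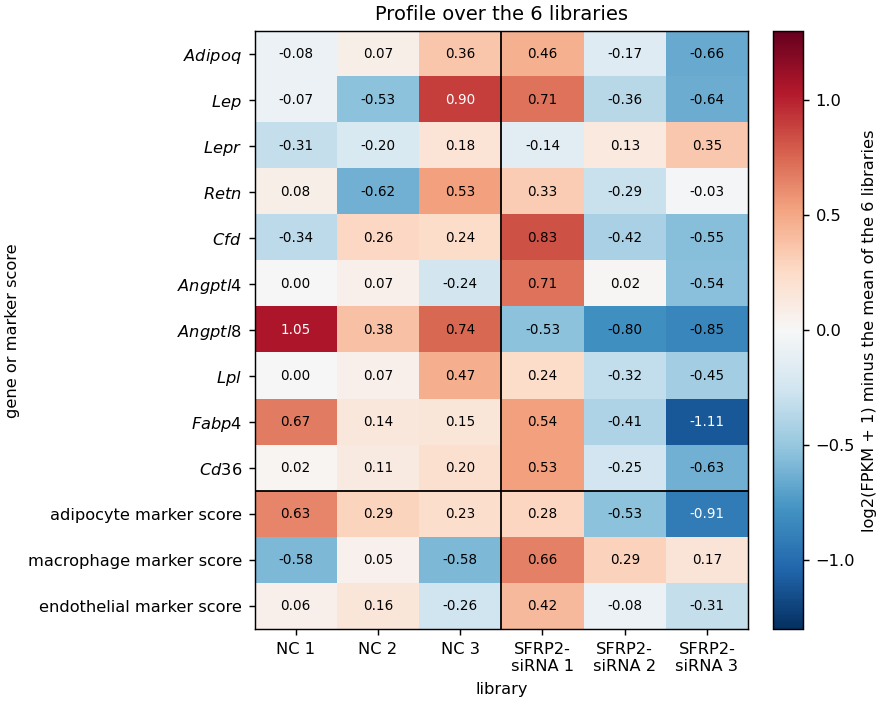
Log2(FPKM + 1) of each gene minus its mean over the 6 libraries (colour and printed number) for the 10 genes and, below the line, 3 marker scores; columns are libraries. Adipoq, Cfd and Cd36 are high in SFRP2-siRNA 1 and low in SFRP2-siRNA 3, and Angptl8 is low in all 3 SFRP2-siRNA libraries.

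Profiles over the 6 libraries were compared by the root mean square distance between log2 levels centred on each gene's mean, a description without a test. Among the 10 genes Adipoq and Cd36 were nearest (0.093), followed by Adipoq and Lpl (0.149), and Lepr and Angptl8 were farthest apart (0.91). Among all other genes tested, Cidec, a lipid droplet protein, was nearest to Adipoq (0.066), followed by Cebpa (0.098). Lpl was nearest to Ffar4, a fatty acid receptor (0.075), and then to Cebpa (0.105). Fabp4 was nearest to Fcor (0.070) and Plin1 (0.134), and Cd36 to Aldh1l1 (0.065) and Pla2g16 (0.073). Several of these neighbours are themselves fat cell genes.

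The remaining genes had other neighbours. Angptl4 was nearest to Fas (0.086) and Trib3 (0.089), Lep to Dmrt2 (0.132) and Tmem254a (0.159), and Cfd to Cav2 (0.149) and Sec14l4 (0.151). Retn was nearest to Tnfrsf4 (0.123) and Gm33432 (0.142), and Lepr, whose level near 1 FPKM damps its profile on this scale, to Xrcc5 (0.032) and Aimp1 (0.037). Angptl8 was nearest to Pdhb, a subunit of pyruvate dehydrogenase (0.203), and 2010003K11Rik (0.215), both also lower in SFRP2-siRNA libraries, by -1.17 and -1.20 on the log2 scale. No gene came as close to Angptl8 as the nearest gene came to any other member. This distance grows with a gene's own spread, so it does not show that the profile of Angptl8 was unusual in shape. The root mean square of Angptl8 around its mean was 0.758, against 0.235 (Lepr) to 0.603 (Fabp4) for the other members.

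Fat cell markers had lower means in the libraries labelled SFRP2-siRNA as well. Of 20 marker symbols 19 were in the table, none of them at 0 in any library, and their FPKM summed to 2410.7 to 3653.3 in NC and 1124.5 to 2461.7 in SFRP2-siRNA libraries. By mean, 18 of the 19 were lower in SFRP2-siRNA, 6 of them at an unadjusted limma p under 0.05 (Cidea, Lipe, Adrb3, Slc2a4, Gpd1 and Dgat2), and 0 passed the adjusted threshold. Of the most abundant, Gpd1 (glycerol 3-phosphate dehydrogenase) had 752 ± 349 and 176 ± 69.6 FPKM and Car3 (carbonic anhydrase 3) 547 ± 64.7 and 542 ± 188 FPKM (SD, n = 3 each). Pnpla2, the first lipase of fat breakdown, had 301 ± 146 and 158 ± 90.5 FPKM (SD, n = 3 each). In bulk tissue fewer fat cells and less RNA of these genes per fat cell cannot be told apart.

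Each member was therefore also set against the mean log2 level of the 19 markers in its own library. That score was lower by mean in SFRP2-siRNA libraries, with a difference of -0.77 (SE 0.37, exact permutation p = 0.2) and overlapping groups. A gene with no difference of its own therefore reads as higher on this scale. Relative to the score Angptl8 was still lower in SFRP2-siRNA, by -0.68 (SE 0.29) without overlap, and Angptl4 was higher, by 0.89 (SE 0.13) without overlap. Adipoq, Cfd and Cd36 were also higher relative to the score without overlap, by 0.54 (SE 0.25), 0.67 (SE 0.35) and 0.55 (SE 0.17). Before the score was subtracted, Angptl4, Adipoq, Cfd and Cd36 differed by 0.12, -0.24, -0.11 and -0.23, beside a median of 0.125 over all genes tested. The share of all genes without overlap on the relative scale was not computed. Margins were narrow for Angptl8 (-1.62 in NC 2, -1.65 in SFRP2-siRNA 3) and Adipoq (2.22 in NC 3, 2.27 in SFRP2-siRNA 1). For Cfd they were 1.39 in NC 3 and 1.48 in SFRP2-siRNA 2. The exact permutation p was 0.1 for each of these 5 genes. Without NC 1 the relative differences of Adipoq, Cfd and Cd36 were 0.31, 0.34 and 0.38, and without SFRP2-siRNA 1 that of Angptl8 was -0.44. Cd36 kept nearly the same distance to the score in the SFRP2-siRNA libraries, at 2.20, 2.23 and 2.23 on the log2 scale.

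Lep, Lepr, Retn, Lpl and Fabp4 overlapped between the groups relative to the markers. Their relative differences were 0.58 (SE 0.48), 1.00 (SE 0.56), 0.78 (SE 0.44), 0.42 (SE 0.29) and 0.12 (SE 0.14), with exact permutation p between 0.2 and 0.5. Fabp4 was the gene closest to the markers, between 3.86 and 4.31 above the score in the 6 libraries. Markers differed widely among themselves, from a log2 difference of -2.23 for Cidea to 0.19 for Slc7a10, so a relative value depends on which markers are taken. With only the 3 most abundant, the differences were 1.15 for Angptl4, 0.92 for Cfd, 0.80 for Cd36, 0.79 for Adipoq and -0.42 for Angptl8. For Angptl8, SFRP2-siRNA 3 then lay above NC 1 and NC 2, so its groups overlapped.

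**Figure D4:**
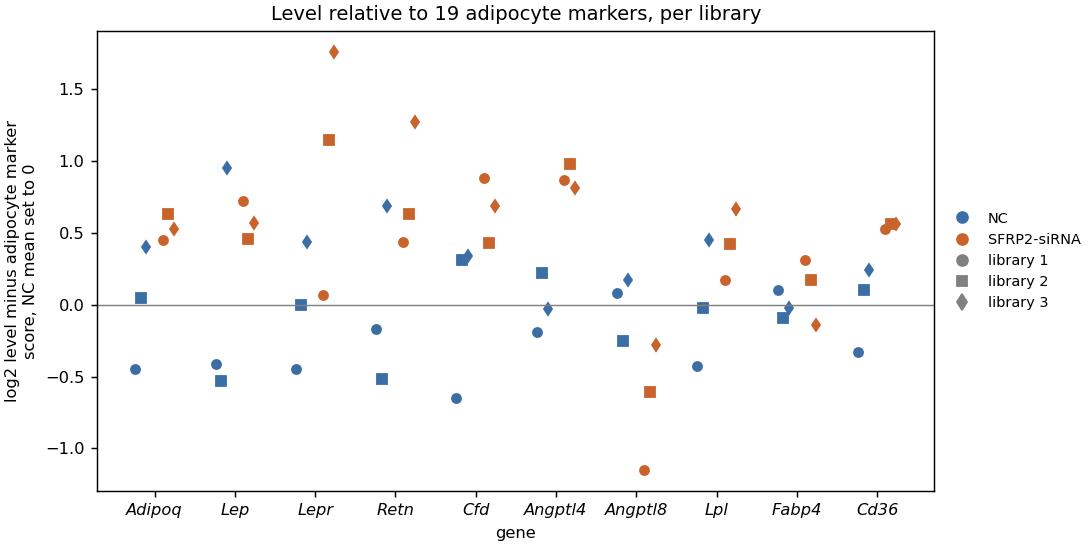
Log2 level of each of the 10 genes minus the mean log2 level of 19 adipocyte markers in the same library (y axis), with the NC mean of each gene set to 0; blue NC and orange SFRP2-siRNA libraries, marked by library number. All 3 SFRP2-siRNA points lie above the NC points for Adipoq, Cfd, Angptl4 and Cd36 and below them for Angptl8, by narrow margins for Adipoq, Cfd and Angptl8. The score itself was lower by mean in SFRP2-siRNA libraries, which raises the SFRP2-siRNA points of every gene.

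Macrophages, endothelium and muscle also make Lpl, Fabp4 or Cd36, and their markers were measured in the same libraries. All 13 macrophage markers were higher by mean in SFRP2-siRNA, 9 at an unadjusted limma p under 0.05 and none at 0, and summed to 1089.1 to 1735.9 FPKM in NC and 1946.3 to 2580.2 FPKM in SFRP2-siRNA libraries. Of the 12 endothelial markers 0 differed at an unadjusted limma p under 0.05, with sums of 111 to 158 and 108 to 193 FPKM. The 10 skeletal muscle markers tested had sums of 3445.9 to 7006.3 and 4730.1 to 13284.3 FPKM, 0 at an unadjusted limma p under 0.05. Fibroblast markers were higher in SFRP2-siRNA for 8 of 10 at an unadjusted limma p under 0.05, with sums of 1001.3 to 2186.4 and 2416.8 to 2494.4 FPKM. Of the 12 sebaceous gland markers 2 were lower at that p, Cidea and Ldhb, the first also a fat cell marker. The part of each of these tissues in the members' levels was not tested.

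Around the members, 0 genes of any pathway or marker list passed the adjusted limma threshold, and the counts that follow are at an unadjusted p. Of 14 genes of leptin signalling tested, 0 had an unadjusted limma p under 0.05 in either direction, and their median log2 difference was 0.16, beside 0.125 for all genes. Leprot, which makes a protein that limits leptin receptor at the cell surface, had 37.7 ± 8.49 and 49.9 ± 3.07 FPKM and Socs3, the feedback inhibitor that leptin and many cytokines induce, 22.0 ± 6.73 and 43.0 ± 17.4 FPKM (SD, n = 3 each). Ptpn11, a phosphatase that binds the receptor, had 24.5 ± 4.77 and 24.1 ± 0.339 FPKM (SD, n = 3 each). The ratio of Lepr to Leprot was 0.0192 to 0.0360 in NC and 0.0177 to 0.0363 in SFRP2-siRNA libraries, a log2 difference of 0.00 (SE 0.40).

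The adiponectin receptors had differences of opposite sign. Of the 10 genes of adiponectin reception tested, 1 was lower at an unadjusted limma p under 0.05, the lipid oxidation regulator Ppara (2.79 ± 0.849 and 1.28 ± 0.542 FPKM, SD, n = 3 each), and 0 were higher. Adipor1 had 36.6 ± 1.93 and 41.9 ± 2.94 FPKM and did not overlap between groups, higher in SFRP2-siRNA (log2 difference 0.19, SE 0.13). The same held for 13.9% of all genes tested, and under median-of-ratios scaling the Adipor1 groups overlapped. Adipor2 had 50.1 ± 6.14 and 39.9 ± 10.2 FPKM and overlapped (log2 difference -0.35, SE 0.22; means ± SD, n = 3 each). Appl2, an adaptor of both receptors, had 9.62 to 13.7 FPKM in NC and 11.4 to 18.5 FPKM in SFRP2-siRNA libraries.

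Proteins reported to bind resistin were represented by 4 genes, of which 2, Dcn and Tlr4, were higher at an unadjusted limma p under 0.05 and 0 lower. Dcn, a matrix proteoglycan and also a fibroblast marker, had 89.0 ± 14.7 and 149 ± 9.07 FPKM, Tlr4 2.65 ± 1.12 and 4.69 ± 1.39 FPKM, and Cap1 89.3 ± 19.5 and 105 ± 14.6 FPKM (SD, n = 3 each). In the alternative complement pathway that adipsin starts, 9 genes were tested and all 9 had a higher mean in SFRP2-siRNA, 3 at an unadjusted limma p under 0.05 (Cfp, Cd55 and C3ar1). C3, the central component, had 61.7 ± 31.7 and 82.0 ± 13.1 FPKM, Cfp, its stabiliser properdin, 39.9 ± 12.8 and 64.6 ± 14.0 FPKM, and C5ar1, a receptor of myeloid cells, 18.6 ± 6.08 and 30.8 ± 9.37 FPKM (SD, n = 3 each). Their median log2 difference was 0.63, and 0.32 without NC 1, beside -0.11 for Cfd itself, which ran from -0.54 to 0.15 with any 1 library left out. The macrophage sums given above were also higher in SFRP2-siRNA, and their part in these levels was not tested.

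Of other secreted factors credited to fat, 20 of 22 were tested. At an unadjusted limma p under 0.05, 2 were lower, Nrg4 (4.09 ± 0.666 and 2.27 ± 1.31 FPKM) and the adiponectin paralogue C1qtnf9 (11.9 ± 1.39 and 7.73 ± 1.64 FPKM), and 1 was higher, C1qtnf2 (6.23 ± 1.05 and 8.35 ± 0.983 FPKM, SD, n = 3 each). The most abundant was Retnlg, a resistin relative made by neutrophils, with 26.2 to 110 FPKM in NC and 36.2 to 254 FPKM in SFRP2-siRNA libraries. Lcn2, a neutrophil and epithelial protein, had 48.6 to 111 and 23.5 to 129 FPKM, and Rarres2 (chemerin) 36.9 ± 7.52 and 55.9 ± 23.5 FPKM (SD, n = 3 each). By mean, 10 of the 20 were lower and 10 higher, with a median log2 difference of 0.16.

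Partners of the lipase showed no gene at an unadjusted limma p under 0.05 among the 14 of 18 tested, with a median log2 difference of -0.08. Apoe, carried on the lipoproteins that the lipase works on and made in bulk by macrophages, had 2539.6 ± 230 and 2263.7 ± 334 FPKM, Sdc1, a heparan sulfate proteoglycan, 128 ± 45.3 and 92.2 ± 32.2 FPKM, and Apoc1 76.0 ± 1.22 and 60.1 ± 14.4 FPKM (SD, n = 3 each). Gpihbp1, which anchors the lipase in capillaries, was at 0.0945 to 0.239 per unit of Lpl in NC and 0.116 to 0.155 in SFRP2-siRNA libraries, a log2 difference of -0.18 (SE 0.41, exact permutation p = 0.8).

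Angptl4 is known as a target of fasting, glucocorticoid and hypoxia signals, and 9 other genes that answer to these were examined. None had an unadjusted limma p under 0.05, and their median log2 difference was 0.13. Txnip, which glucose and glucocorticoids raise, had 113 ± 19.3 and 111 ± 21.1 FPKM, Pdk4, a fasting-induced brake on pyruvate dehydrogenase, 63.8 ± 25.7 and 41.2 ± 7.16 FPKM, and Ddit4, a stress-induced inhibitor of mTOR signalling, 46.8 ± 6.35 and 50.1 ± 2.31 FPKM (SD, n = 3 each).

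Other genes of fatty acid uptake and binding were mixed. Of 19 tested, 2 were lower (Slc27a2 and Dbi) and 1 higher (Acsl4) at an unadjusted limma p under 0.05, with a median log2 difference of -0.05. Fabp5, the relative of Fabp4 in keratinocytes and macrophages, had 449 ± 100 and 561 ± 145 FPKM, Dbi, which binds acyl-CoA, 572 ± 226 and 311 ± 93.9 FPKM, and Cav1, the caveolar coat protein, 173 ± 14.4 and 164 ± 55.0 FPKM (SD, n = 3 each). The log2 difference of Fabp5 was 0.31 (SE 0.29), beside -0.65 (SE 0.44) for Fabp4, and the intervals of both reach past 0.

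**Figure D5:**
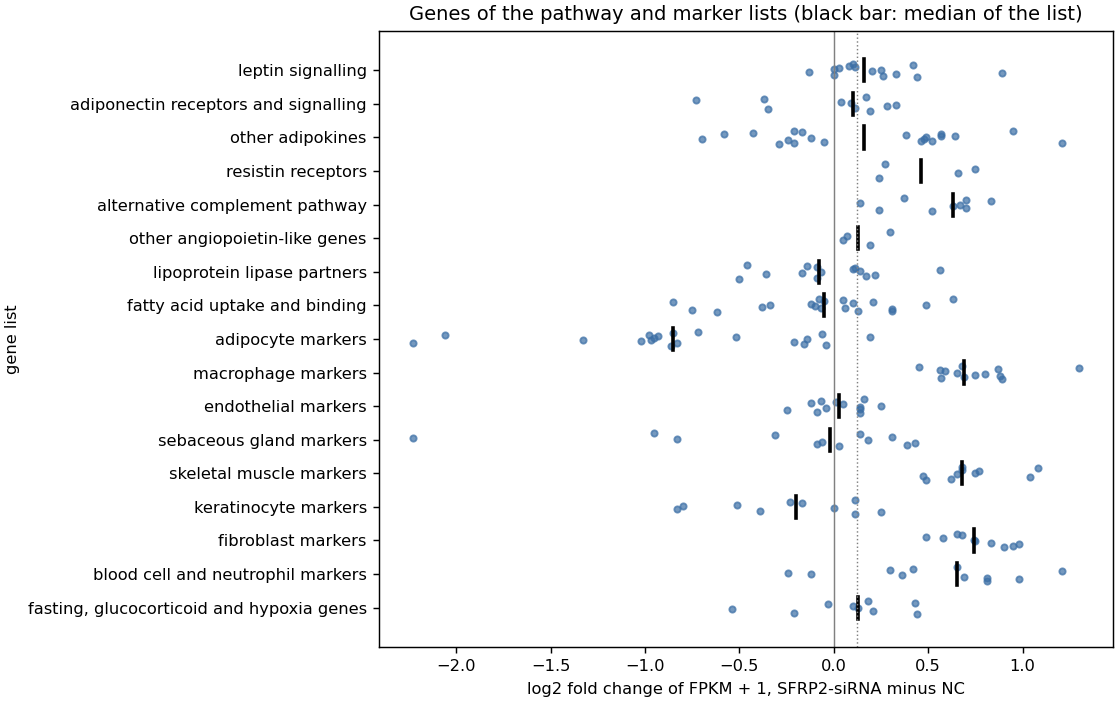
Log2 difference of FPKM + 1, SFRP2-siRNA minus NC (x axis), for each tested gene (points) of the pathway and marker lists (y axis), with a black bar at the median of each list. The solid line is 0 and the dotted line the median of all genes, 0.125. Adipocyte markers have the lowest median, -0.85, and fibroblast (0.74), macrophage (0.69) and skeletal muscle (0.68) markers the highest.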

How the data were processed

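Messenger RNA of the wound tissues was sequenced paired-end by the authors, who deposited 1 table of FPKM values for 33184 Ensembl genes. HISAT2, featureCounts and Subread are named in the submitters' processing notes, and genome build and annotation were not given in the sources used here. Symbols, positions and exon lengths were taken from GENCODE vM21 (GRCm38), which named 32582 genes and left 602 unnamed. With these lengths the FPKM values of 98.3% of named genes (32021) were whole numbers of reads in all libraries, within 0.01 read. Of values of 1 to 20 reads, 64.6% were even, so mates were counted singly and reads are not independent.

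The authors used DESeq2, which needs counts, and called genes at an adjusted p under 0.05 whose log2 fold change exceeded 1 in size. The same thresholds were applied here to log2(FPKM + 1) of genes averaging 0.5 FPKM or more, with limma 3.58.1 (intensity trend, two-sided, Benjamini-Hochberg over 16005 genes) in R 4.3.3. The paper reported genes past its thresholds in these wounds, more of them lower than higher with SFRP2 siRNA. Here none passed, and at an unadjusted limma p under 0.05, 458 genes were lower and 1075 higher. The reason for this disagreement was not tested. The procedure was tested on simulated data. The pseudocount of 1 understates changes of low genes. Single values, ratios and marker scores were compared by two-sided exact permutation tests (SciPy 1.17.1). Groups came from the sample titles. Promoter windows were taken from RefSeq (GRCm38.p6), which listed 7 of the 10 genes.

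The 10 genes and the gene lists were chosen with earlier results of these data known. In each list the 3 genes of highest mean FPKM were named, and for each of the 10 genes the 2 nearest profiles. Other named genes were chosen after their values were seen. As alternatives, results were recomputed without the filter or with it at 2 FPKM, with 0.1 as the pseudocount, scaling to equal sums (with and without mitochondrially encoded genes) or by median of ratios, no intensity trend, sample weights, a replicate block, other thresholds, voom on the recovered reads, the 3 most abundant markers, and leaving out each library. Of same-numbered libraries the deviations from the group means correlated at -0.05, -0.15 and 0.38. With 3 libraries in each group these values cannot decide whether the numbers pair the samples.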

Additional observations from a re-analysis of the deposited data

How the results depend on the processing

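Angptl8 was lower under every alternative, from -1.62 to -1.29 on the log2 scale. The median of the 10 genes, -0.21 with all libraries, depended on single libraries. It ran from -0.55 without SFRP2-siRNA 1 to 0.03 without SFRP2-siRNA 3, where its sign turned. Genes past the threshold, 0 over all genes, became 1533 at an unadjusted p under 0.05 and 143 at that p with an absolute log2 fold change above 1, of which 1 of the 10 genes in both cases. The smallest adjusted p of any gene was 0.119 with sample weights. Retn turned sign with median-of-ratios scaling (-0.15), equal sums without mitochondrially encoded genes (-0.10) and sample weights (-0.13), and Angptl4 with median-of-ratios scaling (-0.04). The cause was not tested.

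Leaving out 1 library at a time moved the count of the 10 genes without overlap between groups from 1 to 6, with 6 without SFRP2-siRNA 1 and 2 without NC 3. It moved the difference of Adipoq from -0.53 to 0.03, Lep from -0.59 to 0.21, Retn from -0.30 to 0.27, Cfd from -0.54 to 0.15, Angptl4 from -0.21 to 0.42, Cd36 from -0.55 to 0.03, Fabp4 from -1.08 to -0.26, Lpl from -0.56 to -0.21 and Lepr from 0.11 to 0.37. The sign turned without SFRP2-siRNA 3 for Adipoq (0.03), Cd36 (0.03), Lep (0.08) and Cfd (0.15), without SFRP2-siRNA 2 for Cfd (0.08), without SFRP2-siRNA 1 for Retn (-0.16) and Angptl4 (-0.21), without NC 3 for Lep (0.21) and without NC 2 for Retn (-0.30) and Cfd (0.0019). Of 159 values of single genes 145 kept their direction and side of the threshold. Of list medians 258 of 272, and of values relative to the markers 136 of 139, moved by less than the spread, which still allows a turn of sign.

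The fit with a replicate block called 0 genes, with 1929 at an unadjusted p under 0.05, and gave Angptl8 a difference of -1.45 (limma adjusted p = 0.193). Whether the shared numbers pair the samples could not be decided, and the block changed no call. Lepr was below the filter at 2 FPKM. Values relative to the markers came from no model across genes, so the trend, weights and block were not run on them. With 3 libraries in each group and 2 of 6 standing apart (NC 1 and SFRP2-siRNA 1), the spread between libraries limits the precision of all 10 genes.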

Other observations

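Keratinocyte markers had a median log2 difference of -0.20, with Krt14 at 2295.7 ± 668 and 2825.1 ± 1154.4 FPKM in NC and SFRP2-siRNA libraries and Krt5 at 1434.5 ± 470 and 1538.8 ± 483 FPKM (SD, n = 3 each). Of the 10, 1 was lower at an unadjusted limma p under 0.05, the cornified envelope gene Lor. Sebaceous gland markers had a median of -0.02, and their FPKM summed to 1471.5 to 1501.2 in NC and 890.0 to 1355.0 in SFRP2-siRNA libraries. These sums did not overlap, but only with Cidea included, which is also a fat cell marker. Cidea had 482, 311 and 180 FPKM in NC and 132, 50.7 and 37.3 FPKM in SFRP2-siRNA libraries 1, 2 and 3. The lipid droplet coat gene Plin2 on the same list had 155 ± 24.8 and 130 ± 49.0 FPKM (SD, n = 3 each).

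Blood cell and neutrophil markers had a median log2 difference of 0.65, with 1 of 11 higher at an unadjusted limma p under 0.05, Alas2, the first enzyme of haem synthesis in red cells. The neutrophil gene S100a9 had 1218.1 ± 267 and 2997.5 ± 1980.6 FPKM and the globin gene Hbb-bs 970 ± 202 and 1303.9 ± 327 FPKM (SD, n = 3 each). Their sums over the list were 2928.9 to 3856.3 FPKM in NC and 2817.3 to 7539.4 FPKM in SFRP2-siRNA libraries, with SFRP2-siRNA 3 the lowest of the 6, as it was for 8 of the 10 genes.

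Among fibroblast markers Col3a1 had 438 ± 251 and 775 ± 31.2 FPKM and Col1a1 409 ± 195 and 712 ± 37.4 FPKM (SD, n = 3 each). The most abundant macrophage markers were Lyz2, with 585 ± 196 and 1047.3 ± 156 FPKM, and C1qb, with 192 ± 46.2 and 285 ± 24.8 FPKM (SD, n = 3 each). Skeletal muscle was led by Acta1, with 2731.4 ± 688 and 4108.7 ± 2178.5 FPKM (SD, n = 3 each).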
